A study of Mus musculus with 6 samples.

Results

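The transcripts described are 37 genes of T cell receptor (TCR) signalling, taken as a named list of receptor chains, coreceptors, kinases, adaptors, inhibitory enzymes and downstream factors. Of these, 36 had a probe set, a group of short oligonucleotides that together report 1 transcript, among the 18194 genes named on the array, and Nfkb1 was not analysed here. Each gene was read from its brightest probe set on average, and all 36 passed the filter on dim genes. Total RNA of regulatory T (Treg) cells, labelled nTreg, of C57BL/6 mice was measured on oligonucleotide arrays. Wild-type cells (WT) and Foxo1 knockout cells (Foxo1KO) were measured on 2 arrays each. Cells of mice with Foxo1AAA, a constitutively active form of the forkhead transcription factor Foxo1, were measured on 1 array, and so were cells of knockout mice that also carried Foxo1AAA (Foxo1KO/Foxo1AAA). The Cre driver, the deleted part of Foxo1, the site of the transgene, how the cells were isolated, the ages of the mice and whether an array held RNA of 1 mouse or a pool were not stated in the sources used here, so p-values measure the spread between arrays.

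The TCR has no enzyme of its own. Peptide binding lets Src-family kinases phosphorylate the CD3 and zeta chains, ZAP-70 docks there and phosphorylates the adaptors LAT and SLP-76, and phospholipase C-gamma then makes the messengers that open calcium and NFAT, Ras and MAP kinase, and protein kinase C and NF-kB signalling. CD28 gives the costimulatory signal. Phosphatases, ubiquitin ligases, diacylglycerol kinases and the kinase Csk hold the cascade back. Treg cells need TCR and CD28 signals to develop and to keep their suppressive state.

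The arrays differed in make-up. Foxo1 itself measured 11.03 and 11.35 in WT, 10.87 and 10.65 in Foxo1KO, 10.71 in Foxo1AAA and 9.66 in Foxo1KO/Foxo1AAA, in log2 units as are all levels and differences here. This is the brightest of 4 Foxo1 probe sets, and it checks the label only if it lies in the deleted part. Foxo1KO was below WT by 0.43 (log2 difference -0.43, limma adjusted p = 0.045). Xist, made from the inactive X chromosome, lay between 12.03 and 13.43 in WT and Foxo1KO but at 6.04 and 6.27 on the arrays with Foxo1AAA. The Y-linked Eif2s3y was near 4 on WT and Foxo1KO replicate 1 (3.91 and 4.05) and between 9.91 and 10.59 on the other 4 arrays. Replicate 2 of WT and of Foxo1KO thus read high for both Xist (12.03 and 12.59) and Eif2s3y (10.09 and 9.91), so the replicates of a group differed in these genes. Of 10 tested myeloid markers, 3 rose in Foxo1KO, and all 10 were higher in Foxo1AAA than in WT with a median difference of 3.21. The log2 levels of 12 measured myeloid markers summed to 76.1 and 79.3 in WT, to 80.2 and 86.9 in Foxo1KO, to 107.6 in Foxo1AAA and to 109.8 in Foxo1KO/Foxo1AAA, and the macrophage receptor gene Csf1r reached 11.99 and 12.38 on those last arrays against 8.36 and 8.93 in WT. B cell markers summed to between 63.9 and 68.2 in WT and Foxo1KO and to 73.0 and 71.1 on the arrays with Foxo1AAA. The T cell markers Cd3e, Cd3g and Cd4 summed to 33.65 and 33.71 in WT and to 32.89 and 33.03 in Foxo1KO. On the arrays with Foxo1AAA they summed to 33.6 and 33.18. They are also among the TCR genes described, so they are no separate check of cell make-up. The Treg markers summed to between 65.1 and 65.9 on all 6 arrays. Foxp3, however, read 5.10 to 5.58, around the limit of 5.47 used for dim genes. Of 5 tested Treg markers 1 fell in Foxo1KO, Izumo1r (log2 -0.70, limma adjusted p = 8.8e-04). Ctla4 rose (log2 0.46, limma adjusted p = 0.046), and the rest were not called. Differences in sex of the mice, in other cells and in Foxo1AAA cannot be told apart in comparisons that set an array with Foxo1AAA against one without. The comparison of Foxo1KO with WT, and the residual spread of every test, came from the other 4 arrays.

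Foxo1KO cells had less RNA for 11 of the 36 genes and more for 2. Dgka, Cd28 and Ubash3b fell most, each to well under the WT level, and Pag1 rose most. The falls included costimulation (Cd28), both measured Tec-family kinases (Txk and Tec) and 3 of 9 inhibitory enzymes (Dgka, Ubash3b and Ptpn6). The 4 CD3 and zeta chains were all somewhat lower (log2 -0.27 to -0.14) and were not called, although Cd247 was called under some other settings. Zap70 and Lat were not called either. Over all 13645 tested genes 10.7% were called lower and 11.2% higher in this comparison, 21.8% in either direction, against 36.1% of these 36 genes. The 36 were chosen with earlier results of these data known, so the shares are given side by side and an excess was not tested. The median difference of the 36 was -0.16, beside 0.02 (log2) over all tested genes, and the median size of a difference was 0.17 beside 0.15. Fewer cells of a type and less RNA per cell cannot be told apart in such bulk samples.

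**Figure D1:**
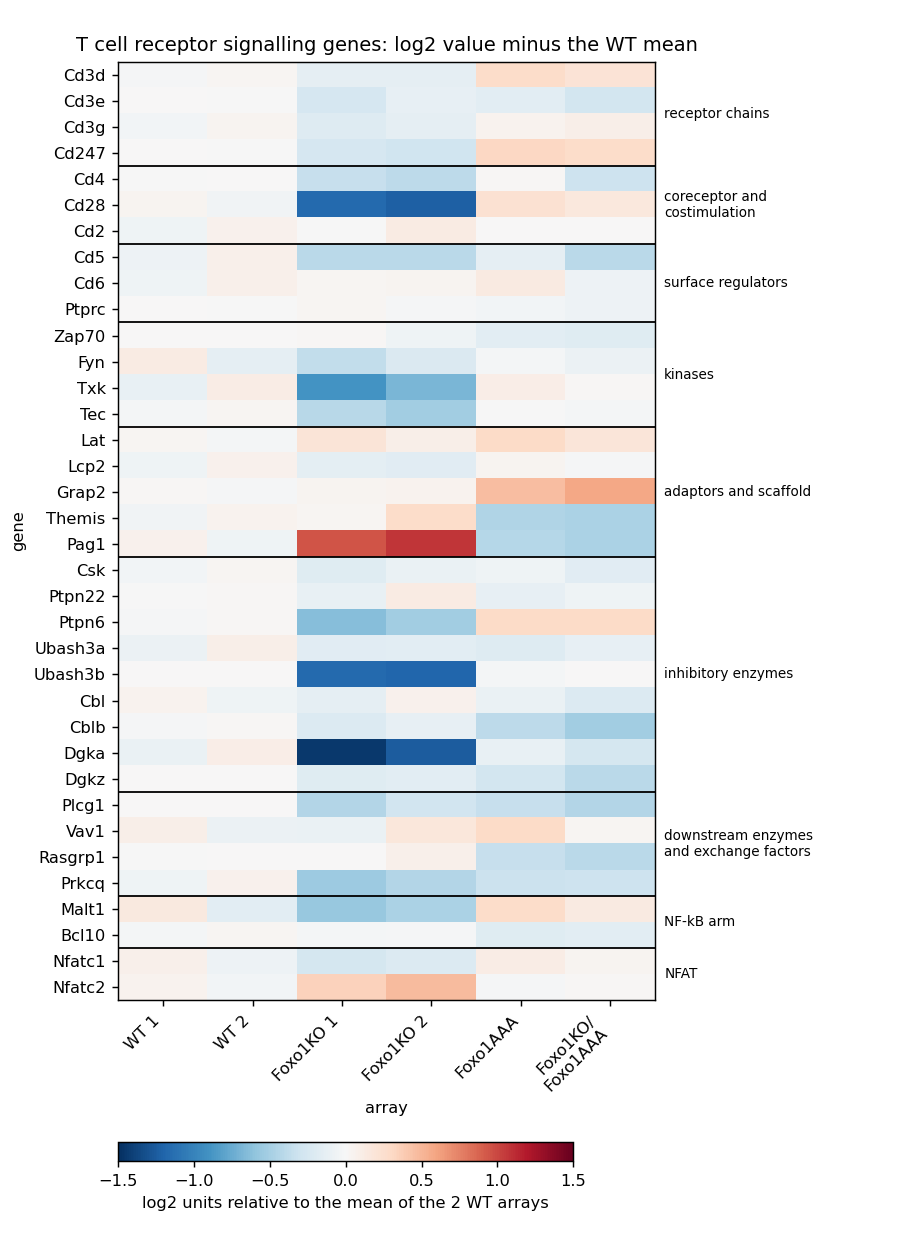
Log2 value minus the mean of the 2 WT arrays for 36 TCR signalling genes (rows, grouped by role) on each of the 6 arrays (columns), with blue below and red above WT. Cd28, Ubash3b and Dgka are dark blue and Pag1 red on the Foxo1KO arrays alone, while Grap2 is red and Themis blue on the arrays with Foxo1AAA.

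Promoter sequence was set beside these changes because several members moved together. RefSeq windows (GRCm38.p6) were at hand for 29 of the 37 genes, in 42 windows, and only the 250 bases before each annotated start were read. Cd28, Pag1, Malt1, Cd4, Cd2, Cd6, Nfatc1 and Nfkb1 had no window and were not searched. Forkhead factors of the Foxo class are known to bind GTAAACA and CAAAACAA, and both were searched on both strands (reverse complements TGTTTAC and TTGTTTTG). GTAAACA was in 2 of the 42 member windows, those of Grap2 and Nfatc2, and in 3.17% of 32851 windows over all genes. CAAAACAA was in 2 of the 42, of Txk and Ubash3b, and in 2.21% of all windows. The arrays do not tell which start a cell used. The first listed of 4 Dgka windows is shown as that of a strongly lowered gene with no match in any of them, beside the lowered genes Ubash3b and Txk and the raised gene Nfatc2 with their matches in capitals. They lie at chr10:128745085-128745334 (Dgka), chr9:41079507-41079756 (Ubash3b), chr5:72736603-72736852 (Txk) and chr2:168601658-168601907 (Nfatc2), all on the minus strand and printed 5′ to 3′ along the gene. The matches begin 182, 212 and 185 bases before the start in Ubash3b, Txk and Nfatc2. The Grap2 window is not printed, and Grap2 was not called in Foxo1KO against WT (log2 0.05). A match is a run of letters and not a measured binding site.
Dgka: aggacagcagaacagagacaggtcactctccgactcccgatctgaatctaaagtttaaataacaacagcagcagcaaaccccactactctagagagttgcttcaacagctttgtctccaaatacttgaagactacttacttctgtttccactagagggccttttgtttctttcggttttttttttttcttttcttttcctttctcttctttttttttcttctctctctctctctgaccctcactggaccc
Ubash3b: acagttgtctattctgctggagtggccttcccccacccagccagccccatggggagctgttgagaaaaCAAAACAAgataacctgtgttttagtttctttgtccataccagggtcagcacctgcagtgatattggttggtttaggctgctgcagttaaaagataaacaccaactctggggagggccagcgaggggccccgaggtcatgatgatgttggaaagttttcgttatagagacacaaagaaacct
Txk: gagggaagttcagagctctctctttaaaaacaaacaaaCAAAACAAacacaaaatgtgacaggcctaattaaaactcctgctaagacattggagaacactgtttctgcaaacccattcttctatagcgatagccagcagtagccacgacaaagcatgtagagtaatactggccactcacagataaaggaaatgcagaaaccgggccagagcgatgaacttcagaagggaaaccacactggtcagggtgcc
Nfatc2: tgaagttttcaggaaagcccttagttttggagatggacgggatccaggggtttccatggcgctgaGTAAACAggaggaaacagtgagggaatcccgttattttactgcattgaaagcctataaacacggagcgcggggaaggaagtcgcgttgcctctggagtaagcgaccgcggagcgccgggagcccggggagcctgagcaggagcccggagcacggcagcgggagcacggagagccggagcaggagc

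**Figure D2:**
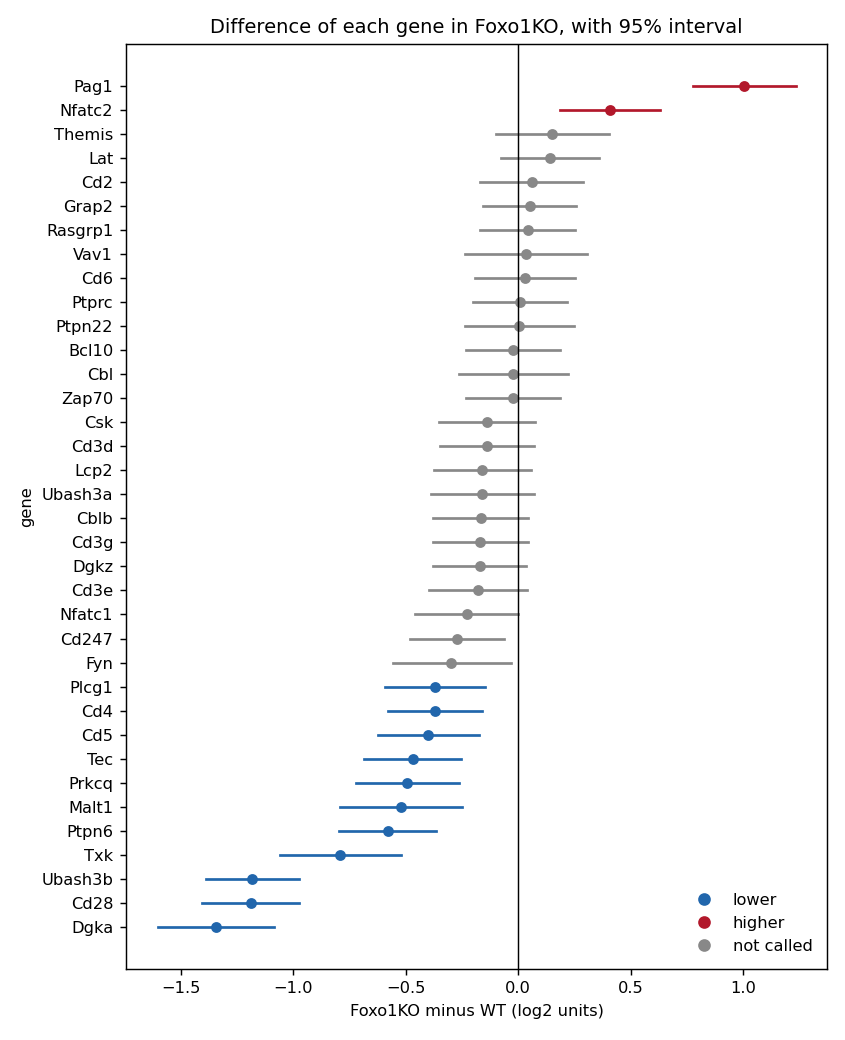
Foxo1KO minus WT in log2 units (x axis) for each of 36 genes (y axis), ordered by difference, with 95% confidence intervals from limma. Blue genes were called lower (11) and red ones higher (2) at an adjusted p under 0.05, from Dgka at -1.34 to Pag1 at 1.00 (1.005).

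Among the receptor chains, 0 of 4 were called in Foxo1KO. Cd3d, Cd3e and Cd3g, which form the CD3 dimers, differed from WT by -0.14, -0.18 and -0.17, with 95% intervals of -0.35 to 0.07, -0.40 to 0.04 and -0.38 to 0.04. Cd247, the zeta chain that carries most of the receptor's signalling motifs, measured 11.03 and 11.01 in WT and 10.77 and 10.72 in Foxo1KO. Its groups did not overlap, and its difference of -0.27 was not called (adjusted p = 0.066), although it was called under 4 of 11 other settings, with adjusted p from 0.025 with an intensity trend in the variance prior to 0.048 with the arrays centred on their medians. All 4 Cd247 probe sets were lower in Foxo1KO (log2 -0.40 to -0.21), and 1 dimmer one was called (log2 -0.40, p adjusted across every probe set = 0.039). Cd3d and Cd3g lay between 13 and 13.6 on the 6 arrays, among the brighter values measured.

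Cd28, the main costimulatory receptor, gave one of the clearest falls. It measured 12.09 and 12 in WT, 10.88 and 10.83 in Foxo1KO, 12.28 in Foxo1AAA and 12.21 in Foxo1KO/Foxo1AAA. The knockout arrays were low, and the other 4 arrays lay close together above them. The fall was 2.28-fold (log2 -1.19, SE 0.09, adjusted p = 4.4e-05), from 12.05 ± 0.06 to 10.86 ± 0.04 (SD, n = 2 each), and a second Cd28 probe set fell by 1.30. Cd4, the coreceptor for MHC class II, differed by -0.37 (adjusted p = 0.019), with 9.67 and 9.68 in WT and 9.32 and 9.28 in Foxo1KO. Its call ended with the mean of its probe sets (-0.17, or -0.175, adjusted p = 0.16) and on leaving out any 1 of the 4 WT and Foxo1KO arrays, at adjusted p = 0.074 and 0.080 without WT replicates 1 and 2 and 0.066 and 0.089 without Foxo1KO replicates 1 and 2, and over all alternatives it ranged from 0.011 to 0.16. A dimmer Cd4 probe set differed by 0.02. The adhesion receptor Cd2 differed by 0.06 (95% interval -0.17 to 0.29).

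Of the surface regulators, Cd5, a scavenger-receptor family protein that dampens TCR signals, fell from 12.43 and 12.59 to 12.11 on both Foxo1KO arrays (log2 -0.40, adjusted p = 0.020). This call ended without WT replicate 2 (-0.32, adjusted p = 0.14), Foxo1KO replicate 1 (0.086) or Foxo1KO replicate 2 (0.084), within a range of 0.0020 to 0.14 over the alternatives. Its paralogue Cd6 differed by 0.03, with an interval of -0.19 to 0.25. Ptprc, which encodes the phosphatase CD45, differed by 0.01 at a level of 14.09 to 14.20 on the 6 arrays, close to the highest values of about 14.8 on any array. A dimmer Ptprc probe set fell by 0.63 (log2 -0.63, p adjusted across every probe set = 0.0077), so the Ptprc probe sets disagree.

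Of 4 kinases 2 were called lower. Txk, a Tec-family kinase of T cells, measured 9.62 and 9.83 in WT, 8.82 and 9.04 in Foxo1KO, 9.82 in Foxo1AAA and 9.74 in Foxo1KO/Foxo1AAA. Both knockout arrays lay below every other array. The difference was -0.79 (SE 0.12, adjusted p = 0.0015), a 1.73-fold fall, and it held under every alternative run. Tec itself was lower by 0.47 (log2 -0.47, adjusted p = 0.0076), with 8.81 and 8.86 in WT and 8.42 and 8.31 in Foxo1KO, which failed the threshold when Foxo1KO replicate 2 was left out (adjusted p = 0.054, lowest elsewhere 0.0047). Zap70, the Syk-family kinase that docks on the receptor, differed by -0.02 (interval -0.23 to 0.19), and its other probe sets differed by -0.03 each. The Src-family kinase Fyn differed by -0.30 (adjusted p = 0.11), while its second probe set fell by 0.54 (log2 -0.54, p adjusted across every probe set = 0.0095). Fyn was called lower with the mean of its probe sets (-0.42, adjusted p = 0.012) and with an intensity trend in the variance prior (adjusted p = 0.038).

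Of 5 adaptors 1, Pag1, was called. Lat, the membrane scaffold, Lcp2 (SLP-76), Grap2 (Gads, which joins them) and Themis, an adaptor that binds Grb2, differed by 0.14, -0.16, 0.05 and 0.15, and none of these was called. The 4 Themis probe sets disagreed, from -0.40 to 0.36, and the last of these was called higher (p adjusted across every probe set = 0.044). Pag1, a transmembrane adaptor that brings Csk to the membrane, measured 11.80 and 11.68 in WT, 12.68 and 12.81 in Foxo1KO, 11.31 in Foxo1AAA and 11.27 in Foxo1KO/Foxo1AAA. The knockout arrays were the highest and the arrays with Foxo1AAA the lowest, with no overlap. In Foxo1KO the transcript rose 2.01-fold (log2 1.00, SE 0.10, adjusted p = 1.5e-04). All 4 Pag1 probe sets were higher in Foxo1KO, by 0.21 to 1.00, 3 of them called, and their mean rose by 0.62. Csk, the partner kinase, differed by -0.14 (interval -0.35 to 0.08).

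Of 9 inhibitory enzymes 3 were called lower and the others were not called. Dgka, a diacylglycerol kinase that removes the messenger of Ras and protein kinase C activation, measured 12.35 and 12.55 in WT, 11.00 and 11.20 in Foxo1KO, 12.34 in Foxo1AAA and 12.19 in Foxo1KO/Foxo1AAA. The knockout arrays lay well under all others, and the fall was 2.54-fold (log2 -1.34, SE 0.11, adjusted p = 6.4e-05). Dgkz, the other diacylglycerol kinase of T cells, differed by -0.17 (interval -0.38 to 0.04). Ubash3b, the phosphatase Sts-1, which removes phosphate from ZAP-70, measured 10.83 on both WT arrays, 9.66 and 9.64 in Foxo1KO, 10.80 in Foxo1AAA and 10.83 in Foxo1KO/Foxo1AAA. It fell 2.27-fold (log2 -1.18, SE 0.09, adjusted p = 3.8e-05), and its 3 probe sets fell by 1.18 to 1.24. The paralogue Ubash3a differed by -0.16 (interval -0.39 to 0.07), and was called lower when its probe sets were averaged (-0.32, adjusted p = 0.040).

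Ptpn6, the tyrosine phosphatase SHP-1, measured 10.77 and 10.81 in WT, 10.15 and 10.27 in Foxo1KO and 11.08 on each array with Foxo1AAA. Knockout arrays were again below all the others. It was lower by 0.58 in Foxo1KO (log2 -0.58, SE 0.10, adjusted p = 0.0026). A second Ptpn6 probe set measured 10.54 and 10.53 in WT and 10.20 and 10.27 in Foxo1KO. On this probe set Foxo1AAA (10.30) and Foxo1KO/Foxo1AAA (10.39) were below WT. Its difference in Foxo1KO was not called (log2 -0.30, p adjusted across every probe set = 0.080). Ptpn22, a phosphatase that works with Csk, differed by 0.00 (0.005, interval -0.24 to 0.25) and the ubiquitin ligase Cbl by -0.02 (interval -0.27 to 0.22). Cblb, the other ligase, differed by -0.17 and was not called, but its other probe sets were lower by 0.38 and 0.68 (log2 -0.38 and -0.68, p adjusted across every probe set = 0.039 and 0.013).

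Downstream of the receptor complex, the calls were smaller. Prkcq, protein kinase C-theta, fell by 0.49 (log2 -0.49, adjusted p = 0.0079), from 11.29 and 11.43 to 10.81 and 10.92, and failed the threshold when Foxo1KO replicate 1 was left out (adjusted p = 0.059, lowest elsewhere 0.0014). Plcg1, phospholipase C-gamma 1, was lower by 0.37 (log2 -0.37, adjusted p = 0.026). Leaving out WT replicate 1, WT replicate 2 or Foxo1KO replicate 1 ended that call (adjusted p = 0.089, 0.086 and 0.15), as did the mean of its probe sets (-0.11, adjusted p = 0.38), and over all alternatives its adjusted p ran from 0.0083 to 0.38. The Rac exchange factor Vav1 and the Ras exchange factor Rasgrp1 differed by 0.04 each, with intervals of -0.24 to 0.31 and -0.17 to 0.25.

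Malt1, the paracaspase of the complex that switches on NF-kB, measured 10.64 and 10.33 in WT, 9.92 and 10.01 in Foxo1KO, 10.76 in Foxo1AAA and 10.63 in Foxo1KO/Foxo1AAA. Both knockout arrays lay below every other array, although the WT arrays stood apart from each other. The difference was -0.52 (SE 0.12, adjusted p = 0.014), and the call ended without WT replicate 1 (log2 -0.37, adjusted p = 0.080), Foxo1KO replicate 1 (0.087) or Foxo1KO replicate 2 (0.053), with a range of 0.0012 to 0.087. The other Malt1 probe sets fell more, by 0.70 and 0.89 (log2 -0.70 and -0.89, p adjusted across every probe set = 0.0062 and 6.2e-04). Bcl10, its adaptor, differed by -0.02 (interval -0.23 to 0.19). Of the NFAT factors, which calcineurin sends to the nucleus, Nfatc2 rose by 0.41 (adjusted p = 0.017), with 10.70 and 10.61 in WT and 11.00 and 11.13 in Foxo1KO, while Nfatc1 differed by -0.23 (adjusted p = 0.15). The Nfatc2 call ended without WT replicate 2 (adjusted p = 0.088) or Foxo1KO replicate 2 (0.099) and with the mean of its 6 probe sets (difference 0.18, adjusted p = 0.16, range over alternatives 0.0048 to 0.16).

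**Figure D3:**
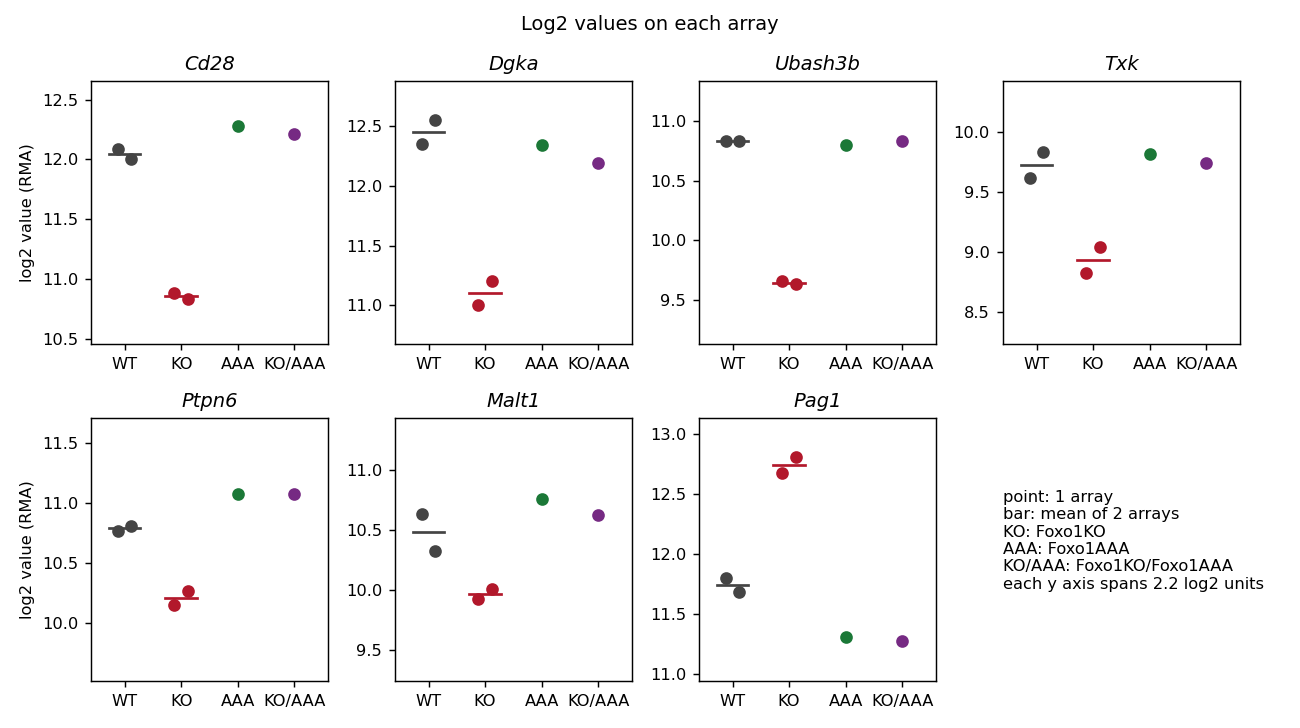
Log2 value (y axis, each spanning the same 2.2 units) of 7 genes on each array (points), by group, with the mean of the replicated groups as a bar. In 6 of them the Foxo1KO points lie below all other arrays, and for Pag1 they lie above, at 12.68 and 12.81. The 7 were drawn because they were called in Foxo1KO against WT with a log2 difference of at least 0.5. Their separation from WT thus comes with that choice, and its share over all tested genes was not counted.

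Without Foxo1KO replicate 1 the number of genes called lower dropped from 11 to 6, and without Foxo1KO replicate 2 to 7. Dgka, Ubash3b, Cd28, Txk, Ptpn6 and Pag1 were called under all 11 alternatives. Markers of CD8 T and NK cells moved with this comparison: 5 of 8 were higher in Foxo1KO, their summed log2 levels were 49.5 and 49.6 in WT against 59.5 and 59.6 in Foxo1KO, and the defining Cd8a and Cd8b1 lay between 7.57 and 8.13 on these 4 arrays. All 15 measured cell cycle genes were higher as well, with a median of 1.52. Their part in the differences of the TCR genes was not tested.

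Beyond the 36, a list of 98 other genes of the same pathway was read, of which 83 were tested. This list, too, was chosen with earlier results of these data known, so shares beside those of all genes are no test of an excess. In Foxo1KO 21 of the 83 fell and 8 rose, with a median difference of -0.04, where 10.7% of all tested genes were lower and 11.2% higher. On the Ras and MAP kinase arm 7 of 14 fell and 0 rose, with a median of -0.31, beside 10.7% lower over all tested genes. Picked out after their values were seen, 6 of the 7 encode proteins known to restrain Ras or its signalling, namely Spred1, Spred2, Rasa1, Rasa2, Rasa3 and Rasal3. Other such genes did not fall. Nf1 differed by -0.003 (95% interval -0.27 to 0.26). Dok1, read among the adaptors, measured 8.27 and 7.97 in WT and 8.35 and 8.52 in Foxo1KO. Dok2 measured 10.06 and 10.09 in WT and 10.38 and 10.39 in Foxo1KO. Spred1 fell by 0.65 and Rasa1 by 0.53, and the exchange factor gene Sos1 fell by 0.38. Of 16 calcium and NFAT genes 5 fell and 1 rose. Rcan3, of the family that regulates calcineurin, measured 9.89 and 9.88 in WT and 8.65 and 8.84 in Foxo1KO, a fall of 1.14 (log2 -1.14, SE 0.10, adjusted p = 8.3e-05), and the store-operated calcium channel gene Orai2 fell by 0.79 and Nfat5 by 0.72 (log2 -0.36 with the mean of its probe sets).

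Adaptors of that list went both ways, with 5 of 17 higher and 5 lower, where 11.2% and 10.7% of all tested genes were. Nck2, an adaptor that links the receptor to actin, rose from 9.81 and 9.78 to 10.85 and 10.91 (log2 1.09, SE 0.09, adjusted p = 6.4e-05), whereas its paralogue Nck1 fell by 0.41. Skap2 rose by 0.93 (0.54 with the mean of its probe sets) while Skap1 fell by 0.33. Trat1, a transmembrane adaptor that associates with the TCR, fell by 0.91, Sh2b3 by 0.78 (log2 -0.38 with the mean of its probe sets) and Lax1 by 0.59. The receptor phosphatase gene Ptprj (CD148) rose from 6.27 and 5.90 to 7.32 and 7.46 (log2 1.31, SE 0.13, adjusted p = 1.6e-04), or by 0.48 with the mean of its probe sets. One of 13 NF-kB genes was called, Ikbkb, the kinase that marks IkB for destruction (-0.57, or -0.30 with the mean of its probe sets), and Vav3 fell by 0.56. Without Foxo1KO replicate 1, 18 of the 83 were called instead of 29.

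Knockout cells with Foxo1AAA were compared with knockout cells without it. In Foxo1KO/Foxo1AAA 10 of 36 genes were higher and 5 lower than in Foxo1KO, where 19.6% and 20.2% of all tested genes were, 39.8% in either direction. The Foxo1KO arrays serve both this comparison and the previous one, so noise in them moves both in opposite directions, and the values are given side by side only. Cd28 was higher by 1.36 (1.355, adjusted p = 6.7e-05), Ubash3b by 1.18, Dgka by 1.09, Ptpn6 by 0.87, Txk by 0.81, Malt1 by 0.67 and Tec by 0.44, and Pag1 was lower by 1.48 (log2 -1.48, adjusted p = 5.9e-05) and Nfatc2 by 0.40. With the mean of their probe sets Ptpn6 was higher by 0.51 and Pag1 lower by 0.95 (log2 -0.95). The second Ptpn6 probe set was higher by 0.16, which was not called. Cd247 was higher by 0.55 (adjusted p = 0.0058) and Cd3d by 0.35 (adjusted p = 0.036), and Grap2 by 0.53 (adjusted p = 0.0068). The other Cd247 probe sets disagreed, with differences of 0.22, -0.19 and 1.19. Themis, Rasgrp1 and Cblb were lower by 0.63, 0.45 and 0.35 (log2 -0.63, -0.45 and -0.35, adjusted p = 0.0074, 0.013 and 0.038). For Cd4, Cd5, Plcg1 and Prkcq the differences were 0.06 (0.055), 0.00 (-0.005), -0.08 and 0.19, and none was called.

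Some of these calls leaned on a scale or an array. Centring the arrays on their medians moved the median of all differences by -0.17 (log2) in this comparison and the split among the 36 genes from 10 higher and 5 lower to 8 and 9, and over all genes from 49.2% to 26.8% of calls higher. The Cd3d call ended with that centring (0.18, adjusted p = 0.21) and without Foxo1KO replicate 1 or 2 (0.087 and 0.085), the Tec call with that centring (0.27, adjusted p = 0.094) and without Foxo1KO replicate 2 (0.059), and the Nfatc2 call without Foxo1KO replicate 2 (0.097). Over the alternatives adjusted p ranged from 0.0019 to 0.21 for Cd3d, 0.011 to 0.094 for Tec and 0.0062 to 0.097 for Nfatc2. With the mean of all probe sets Grap2 (0.23, adjusted p = 0.18), Themis (-0.32, adjusted p = 0.059), Rasgrp1 (-0.18, adjusted p = 0.18) and Cblb (-0.06, or -0.055, adjusted p = 0.69) were no longer called, and Cblb lost its call on leaving out any 1 of the 4 WT and Foxo1KO arrays (adjusted p = 0.051 to 0.11). Without Foxo1KO replicate 2, 3 genes were lower in place of 5. Dgka, Ubash3b, Cd28, Txk, Ptpn6, Malt1, Cd247 and Pag1 were called under all 10 alternatives. Csf1r and the other myeloid markers were high on the same array, 9 of 10 being higher there than in Foxo1KO, and myeloid cells also express Ptpn6. Their part in these differences was not tested.

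Within the arrays that carried Foxo1AAA, the knockout comparison gave small differences. Between Foxo1KO/Foxo1AAA and Foxo1AAA 0 of 36 genes were called by limma, with an unadjusted p under 0.05 for 1 (Cd4, -0.34), and 0 under each alternative. The share over all genes was also small, at 0.0733% (0.066% higher and 0.00733% lower), and a contrast of 1 array with 1 array has little power. Differences ran from -0.34 to 0.11 with a median size of 0.07, beside 0.12 (0.116) over all tested genes. For Cd28 the value was -0.07, for Dgka -0.15 with an interval of -0.52 to 0.21, for Ubash3b 0.02 and for Pag1 -0.04.

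Whether the knockout difference itself depended on Foxo1AAA was tested as an interaction, the knockout difference with Foxo1AAA minus that without. It was called for 4 of 36 genes, 3 with a positive and 1 with a negative value, where 5.94% of all tested genes were called, 2.81% positive and 3.14% negative. Ubash3b gave 1.21 (1.205, SE 0.16, adjusted p = 0.0048), Dgka 1.19 (SE 0.20, adjusted p = 0.011), Cd28 1.13 (1.125, SE 0.16, adjusted p = 0.0066) and Pag1 -1.04 (-1.045, SE 0.17, adjusted p = 0.011). Txk (0.71) and Ptpn6 (0.58) were not called, at adjusted p = 0.087 and 0.085. This contrast uses 2 arrays with Foxo1AAA and 4 without. Those 4 also gave the knockout comparison, in which the same genes had the largest differences, so the interaction calls are no separate result. The arrays with Foxo1AAA were near each other in Xist (6.04 and 6.27) and in summed myeloid markers (107.6 and 109.8). Of 10 tested myeloid markers 1, Cd14, was called between them, at 7.35 in Foxo1AAA and 8.84 in Foxo1KO/Foxo1AAA. The 4 calls held under all 10 alternatives. There adjusted p was at most 0.022 for Ubash3b, 0.037 for Dgka, 0.028 for Cd28 and 0.044 for Pag1. The value of Pag1 was -0.66 with the mean of its probe sets.

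**Figure D4:**
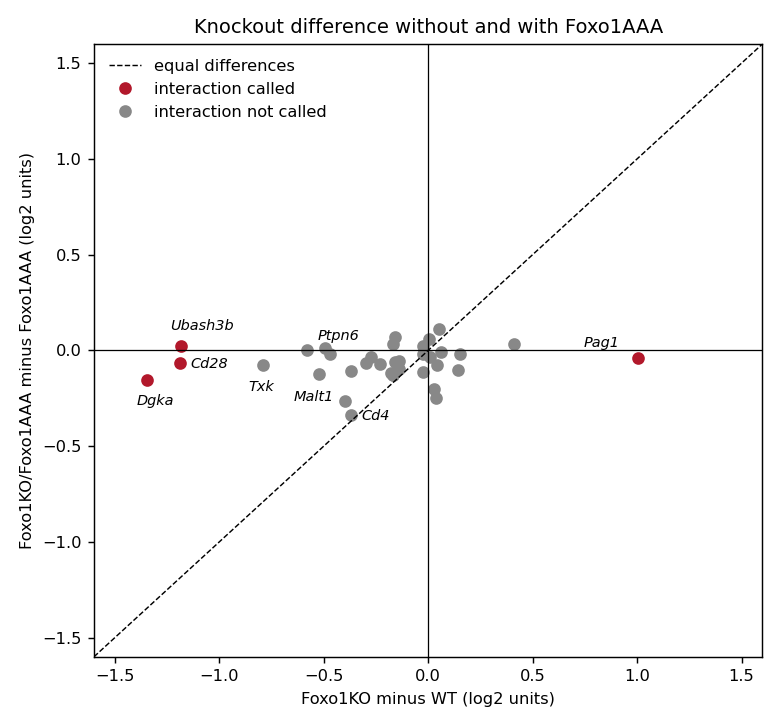
Foxo1KO minus WT (x axis) against Foxo1KO/Foxo1AAA minus Foxo1AAA (y axis), both in log2 units, for 36 genes, with a dashed line where the differences are equal and the 4 genes called in the interaction in red. On the x axis genes spread from -1.34 to 1.00 (1.005), and on the y axis from -0.34 to 0.11.

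The arrays with Foxo1AAA were also set against WT. Foxo1AAA cells had 1 gene higher and 3 lower than WT, where 13.4% and 14.1% of all tested genes were (27.5% in all), and Foxo1KO/Foxo1AAA cells had 1 higher and 7 lower, where 17% and 13.7% were (30.7% in all). Both comparisons share the WT arrays. Grap2, the Gads adaptor, measured 7.13 and 7.09 in WT, 7.15 and 7.16 in Foxo1KO, 7.57 in Foxo1AAA and 7.68 in Foxo1KO/Foxo1AAA. It was the gene called higher in both, by 0.47 and 0.58 (adjusted p = 0.016 and 0.0062). Themis measured 9.32 and 9.42 in WT, 9.40 and 9.64 in Foxo1KO, 8.91 in Foxo1AAA and 8.89 in Foxo1KO/Foxo1AAA, and was lower by 0.46 and 0.48 (log2 -0.46 and -0.48). Cblb was lower by 0.39 and 0.52 and Pag1 by 0.43 and 0.47 (log2 -0.39, -0.52, -0.43 and -0.47). Cd5, Plcg1, Rasgrp1 and Dgkz were called lower than WT in Foxo1KO/Foxo1AAA and not in Foxo1AAA, a contrast not called between those arrays, by 0.40 to 0.45 (Plcg1 log2 -0.45, Cd5 and Dgkz -0.40), and their interaction was not called.

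Many of these smaller calls ended under an alternative. With the mean of all probe sets Grap2 was called in neither comparison (0.27 and 0.35, or 0.355, adjusted p = 0.15 and 0.071), and centring ended its call in Foxo1AAA (0.30, adjusted p = 0.057). The same mean ended the calls of Themis in both (-0.21 and -0.32, adjusted p = 0.21 and 0.070), of Pag1 and Cblb in Foxo1AAA (-0.29 and -0.28, adjusted p = 0.072 and 0.079), and of Dgkz, Plcg1 and Rasgrp1 in Foxo1KO/Foxo1AAA (-0.25, -0.26 and -0.22, adjusted p = 0.081, 0.073 and 0.14). Without WT replicate 2, Grap2 (adjusted p = 0.055) and Themis (0.11) were no longer called in Foxo1AAA, and neither was Cblb without WT replicate 1 or 2 (0.072 and 0.11) or Pag1 without WT replicate 1 (0.11). In Foxo1KO/Foxo1AAA against WT, 3 genes were called lower without WT replicate 1 and 2 without WT replicate 2, against 7 with all arrays. Plcg1 (adjusted p = 0.053 and 0.059), Rasgrp1 (0.058 and 0.080) and Dgkz (0.071 and 0.082) lost their call without WT replicate 1 or 2, Cd5 without WT replicate 2 (0.15) or either Foxo1KO array (0.053 each), Themis without WT replicate 2 (0.086) and Pag1 without WT replicate 1 (0.069). Over the alternatives the adjusted p of Grap2 ran from 0.014 to 0.15 in Foxo1AAA and from 0.0046 to 0.071 in Foxo1KO/Foxo1AAA, and that of Cblb in the latter from 0.0038 to 0.035. Centring the arrays moved the medians of all differences by -0.16 (-0.165) and -0.20 (log2), gave 0 higher and 8 lower in Foxo1AAA and 1 higher and 15 lower in Foxo1KO/Foxo1AAA, and over all genes took the share of calls that were higher from 48.8% to 23.4% and from 55.3% to 23.7%. On that scale Grap2 was higher by 0.38 (0.375) and Dgkz lower by 0.60 (log2 -0.60) in Foxo1KO/Foxo1AAA than in WT, Dgka was also lower than WT in Foxo1KO/Foxo1AAA (log2 -0.46, adjusted p = 0.035), and Cd28 (-0.04), Ubash3b (-0.21) and Txk (-0.18) were not called.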

How the data were processed

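Treg cell RNA (2 ug per sample) was measured on 6 Affymetrix arrays in 4 groups. The deposited values are on the log2 scale and were made by the authors using RMA; the submitters' processing notes also name R 2.15 and the limma package 3.12.1; RMA normalizes arrays together, so a shift of most transcripts would be hidden, and very bright or dim signals are compressed. Of 45101 probe sets, 34958 had 1 gene in the platform annotation, 932 several and 9211 none listed. For each of 18194 genes the brightest probe set on average was kept, and the lowest 25% by mean were left out (13645 tested, mean at least 5.47). The linear model was fitted by limma 3.58.1 under R 4.3.3, 1 coefficient per group, two-sided, with Benjamini-Hochberg adjustment over all tested genes and a threshold of 0.05. Residual spread had 2 degrees of freedom, from the WT and Foxo1KO pairs, beside 6.59 from the prior; lone arrays were assumed to vary likewise. The number of arrays limits the precision. The script was tested on simulated data.

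All 37 members were read by name. Members and lists were chosen with earlier results of these data known. Genes were described array by array where called in Foxo1KO with a log2 difference of at least 0.5, called in the interaction, or called elsewhere with at least 1. Of the 98 other pathway genes, up to 12 called ones with the largest difference were to be named. Further ones (Rasa1, Rasa2, Rasa3, Rasal3, Spred2, Nf1, Sos1, Dok1, Dok2, Nck1, Skap1) were named after their values were seen. Marker lists were T cell, Treg, B cell, myeloid, CD8 T and NK, erythroid (0 of 2 tested called in Foxo1KO) and cell cycle. Alternatives were no filter, the lowest 50% left out, the mean of a gene's probe sets, a robust prior, an intensity trend, arrays centred on medians, each replicate left out and a replicate block. Replicate numbers were not taken to pair the arrays (correlation of deviations -0.096 over 13645 genes), although the Y-linked Eif2s3y was low on replicate 1 and high on replicate 2 in both WT and Foxo1KO.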

Additional observations from a re-analysis of the deposited data

Results flagged for a closer look

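For 4 genes the knockout difference with Foxo1AAA differed from that without it by the interaction test. This test shares its WT and Foxo1KO arrays with the knockout comparison, so it is no separate result. The interaction value was 1.205 log2 units for Ubash3b, 1.19 for Dgka, 1.125 for Cd28 and -1.045 for Pag1. A log2 shift shared by both arrays with Foxo1AAA cancels in that contrast. These arrays also differ from the others in sex and in myeloid markers. A knockout difference that depends on those cannot be told apart from one that depends on Foxo1AAA, and this was not tested.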

How the results depend on the processing

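The other settings left 744 of the values for single genes on the same side of the threshold and in the same direction; 62 calls were lost, 9 were gained in the same direction and 21 differences changed sign, among which Ptprc also gained a call. In Foxo1KO against WT, the mean of all probe sets gave 1 gene higher and 14 lower, the intensity trend 14 lower and 37 other pathway genes, and leaving out 1 replicate gave 1 to 2 higher and 6 to 8 lower, and 18 to 23 of the other pathway genes. The replicate block gave 2 higher and 9 lower genes and 22 other pathway genes; it ended the calls of Cd4 (adjusted p = 0.052) and Plcg1 (adjusted p = 0.056), and it was not run for comparisons with a lone array. In Foxo1KO/Foxo1AAA against Foxo1KO, 2 genes were lower with the mean of probe sets, 9 with centring and 3 to 4 with 1 replicate left out. In Foxo1AAA against WT, 0 were lower with the mean of probe sets, an intensity trend gave 4 higher and 7 lower, centring 0 higher and 8 lower, and leaving out 1 replicate 0 to 1 higher and 1 to 3 lower. In Foxo1KO/Foxo1AAA against WT, the mean of probe sets gave 0 higher and 4 lower, the trend 3 higher, centring 15 lower, and leaving out 1 replicate 2 to 6 lower. The cause was not tested.

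The sign changes were in genes not called in Foxo1KO. With the mean of probe sets Ptprc was -0.31 (adjusted p = 0.037), Themis -0.001, Vav1 -0.013, Rasgrp1 -0.034, Bcl10 0.006 and Nfatc1 0.035. With centring Cd6 was 0, Ptprc -0.02 and Ptpn22 -0.023. With 1 replicate left out, the difference ran from -0.003 (without Foxo1KO replicate 2) to 0.124 for Cd2, also being -0.001 without WT replicate 1, from -0.047 to 0.104 for Cd6, from -0.016 to 0.032 for Ptprc, from -0.061 to 0.014 for Zap70 and from -0.109 to 0.119 for Ptpn22, also being -0.009. It ran from -0.123 to 0.078 for Cbl, also being 0.034, from -0.097 to 0.169 for Vav1, also being -0.052, and from -0.055 to 0.008 for Bcl10.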
